A study of Rattus norvegicus with 10 samples.

Results

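The interferon response genes examined here are Irf1, Irf7, Stat2, Mx1, Mx2, Gbp2, Isg15, Ifit3 and Ifitm6. They were measured in milk whey and serum of rats on arrays of oligonucleotide probes of 60 bases. All non-control probes whose gene name was one of these 9 were taken, which gave 9 probes for 8 genes out of 35469 gene names and 41012 probes. Ifitm6 had 2 probes and every other gene found had 1. No probe carried the name Isg15. The probe named G1p2, an older name of Isg15, carries the accession NM_001106700, which the RefSeq gene table assigns to Isg15. Its values are given beside the others and are not counted among the 9 probes.

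The dams were F344/N rats, an inbred strain, and each was milked on d 2, d 9 and d 16 postpartum, so that each day had 3 whey arrays from the same 3 dams. No whey group was treated differently from another, and all dams received oxytocin and light sevoflurane anesthesia for milking after a few hours apart from their litters. Whey was the clear fluid left after centrifugation had taken fat, cells and casein out of the milk, followed by filtration. Serum was taken from the dams on d 21, and the RNA of dams 1 to 3 was mixed and put on 1 array, so serum has no replicate and entered no test. All 9 mammary epithelium markers examined (keratins, Epcam, Elf5, Muc1 and the milk protein genes Csn2, Lalba and Wap) were measured well above background on each of the 9 whey arrays.

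The 75th percentile of the processed signal was 12.5 to 83.2 on the whey arrays and 4.11 on the serum array, while the geometric mean of 8 spike-in control probes stayed between 15124 and 22063 on all 10 arrays. The brightest array was d 9 whey of dam 3 and the dimmest whey array was d 2 whey of dam 1. The arrays lay on 3 slides. The d 2 whey of dams 1 and 2 was on slide 1, that of dam 3 was on slide 2 together with all d 9 whey, and all d 16 whey was on slide 3 with the serum pool and was scanned on a later day. The d 16 group and its slide cannot be told apart.

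Interferons are secreted proteins that cells release on sensing foreign nucleic acid or on immune activation. Type I interferons signal through the receptor chains Ifnar1 and Ifnar2 and the kinases Jak1 and Tyk2 to a complex that holds Stat2 and Irf9 and binds the interferon-stimulated response element (ISRE). Interferon-gamma signals through Ifngr1 and Ifngr2, Jak1 and Jak2 to genes with a gamma-activated site (GAS). In the mammary gland STAT proteins are also known for carrying the prolactin signal that drives milk protein genes.

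Both motifs were searched on both strands in the 250 bases before the RefSeq transcription start of each gene, the ISRE as a pair of GAAA repeats with any 2 bases between them and the GAS as TTCNNNGAA. Promoter entries were found for 7 of the 9 genes, all but Isg15 and Mx2. The ISRE letters occurred in Irf7, Gbp2 and Ifit3 and the GAS letters in Irf1, and no match overlapped another. Among all 33469 RefSeq rat promoters 3.41% held the ISRE letters and 7.67% the GAS letters. The 4 promoters with a match are shown because they place the motif of the pathway in the genes whose levels follow. Capitals mark the match, and positions are those of build GRCr8. Gbp2 lies at chr2:234005477-234005726 on the plus strand with the match beginning 31 bases before the start, Irf7 at chr1:205800024-205800273 on the minus strand with the match at 69 bases, Ifit3 at chr1:241527076-241527325 on the plus strand with the match at 44 bases, and Irf1 at chr10:38417685-38417934 on the plus strand with the match at 142 bases.
Gbp2: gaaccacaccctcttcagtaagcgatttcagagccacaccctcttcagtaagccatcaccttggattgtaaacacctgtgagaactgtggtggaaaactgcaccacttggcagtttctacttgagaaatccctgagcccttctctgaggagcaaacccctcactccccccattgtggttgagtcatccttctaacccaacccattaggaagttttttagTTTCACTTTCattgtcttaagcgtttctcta
Irf7: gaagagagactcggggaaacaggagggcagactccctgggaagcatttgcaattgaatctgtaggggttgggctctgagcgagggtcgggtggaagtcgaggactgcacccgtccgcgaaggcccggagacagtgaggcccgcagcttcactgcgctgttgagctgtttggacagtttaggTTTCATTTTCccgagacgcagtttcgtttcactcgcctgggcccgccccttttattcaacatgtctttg
Ifit3: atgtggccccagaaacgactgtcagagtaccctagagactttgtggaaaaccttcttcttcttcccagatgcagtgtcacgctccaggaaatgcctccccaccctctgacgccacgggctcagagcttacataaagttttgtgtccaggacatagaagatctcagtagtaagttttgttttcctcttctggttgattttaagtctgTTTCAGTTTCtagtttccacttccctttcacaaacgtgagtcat
Irf1: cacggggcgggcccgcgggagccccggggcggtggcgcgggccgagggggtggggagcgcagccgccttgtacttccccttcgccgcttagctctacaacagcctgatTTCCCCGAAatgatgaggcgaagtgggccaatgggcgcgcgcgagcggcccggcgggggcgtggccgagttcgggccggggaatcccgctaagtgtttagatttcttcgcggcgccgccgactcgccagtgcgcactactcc
The promoters of Stat2, Mx1 and Ifitm6 held neither motif in this window. These matches are letters in a sequence, and binding was not measured.

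Of the 9 probes, 6 passed the filter of a signal above 20 and well above background on at least 1 whey array, and were tested together with 16849 probes in all. Isg15 passed as well. Gbp2, Ifit3 and the tested Ifitm6 probe passed through d 9 and d 16 arrays alone. Mx1, Mx2 and the other Ifitm6 probe were not well above background on any of the 10 arrays and were not tested. A probe is called here when its limma p-value, adjusted by the Benjamini-Hochberg method over all 16849 probes, is under 0.05. Gbp2 was the only one of the 9 probes called between any days. From d 2 to d 9 the call fell on 1 of 6 tested member probes, beside 17.7% of all probes tested. From d 2 to d 16 it fell on 1 of 6, beside 28.5% of all. The F test over the 3 days called 1 of 6, beside 25.6% of all. From d 9 to d 16 limma called 0 of 6, beside 1.42% of all, with 0 at an unadjusted p under 0.05 and 0 by the Tukey-Kramer test.

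**Figure D1:**
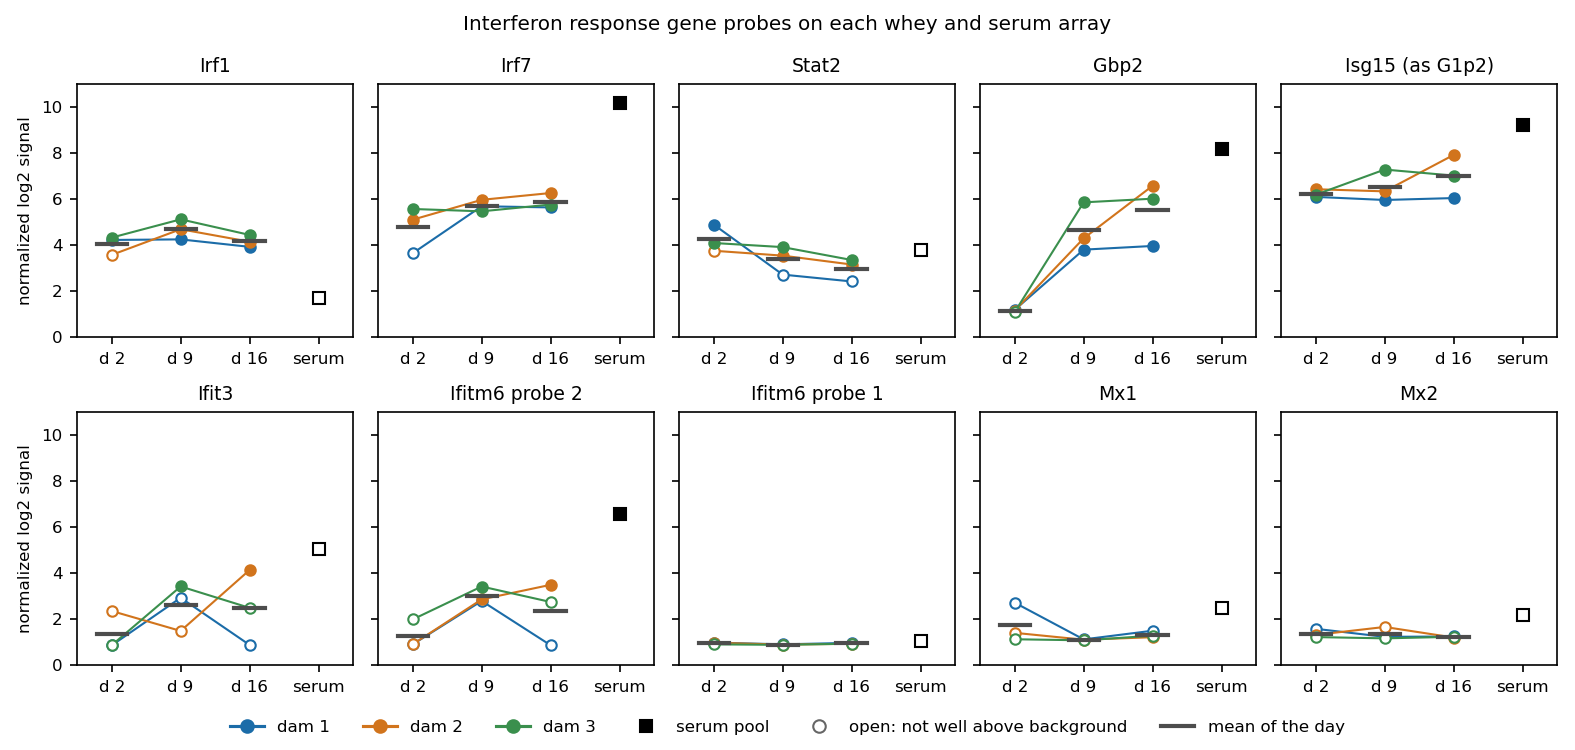
Normalized log2 signal (y axis) of each member probe and of Isg15 in d 2, d 9 and d 16 whey and in serum (x axis). Lines join the arrays of 1 dam, bars mark the mean of 3 arrays, and open symbols were not well above background. Gbp2 moves from open symbols on d 2 to filled ones on d 9 and d 16 in every dam, while Mx1, Mx2 and Ifitm6 probe 1 have open symbols only.

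Gbp2 encodes a guanylate-binding protein, a GTPase that interferon-gamma strongly induces and that acts in defence against intracellular microbes. Its probe (NM_133624) lies at chr2:240541001-240541060 of rat build rn4. The processed signal in d 2 whey was 2.32, 2.08 and 2.20 for dams 1, 2 and 3, on no array well above background. In d 9 whey it was 12.3, 34.0 and 225. In d 16 whey it was 14.4, 174 and 95.8, and all 6 later arrays were well above background. The serum pool gave 28.1. The d 2 values overlapped neither those of d 9 nor those of d 16, and Gbp2 was higher than on d 2 in 3 of 3 dams on both later days. Values without overlap in that direction were found for 24.1% of all probes tested from d 2 to d 9 and for 25.9% from d 2 to d 16.

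After quantile normalization the log2 level of Gbp2 was 1.15 ± 0.05 (SD, n = 3) on d 2, 4.66 ± 1.08 on d 9 and 5.53 ± 1.38 on d 16. Because no d 2 array measured it above background, its rise is given as a bound, the mean of the later day over the lowest signal that counted as well above background on each d 2 array. Against d 2, Gbp2 rose at least 2.29-fold by d 9 and at least 4.19-fold by d 16. The limma adjusted p was 0.0174 for d 9 and 0.00482 for d 16. These belong to the fitted log2 differences of 3.51 and 4.38 and do not test the bounds. The fits used d 2 signals that were not above background, and the probe passed the filter only through the later days. Between d 9 and d 16 the log2 difference was 0.87 (95% confidence interval -0.82 to 2.55, limma adjusted p = 0.550), although the level was higher on d 16 in 3 of 3 dams. With normexp background the fitted log2 difference from d 2 was 0.55 on d 9 (limma adjusted p = 0.114, not called) and 0.86 on d 16 (0.0171), both under the bounds above. The fitted log2 difference from d 2 to d 9 was 3.51, and it was also not called with the slide as a fixed block (3.56, adjusted p = 0.143), within slide 2 (3.56, 0.230), by the Tukey-Kramer test (3.51, 0.0963), without d 2 whey of dam 2 (3.52, 0.0529) or without d 9 whey of dam 2 (3.69, 0.0512). The rise from d 2 to d 16 was called under all 20 alternatives run, with an adjusted p between 1.75e-08 and 0.0350. The fits with the slide as a fixed block and within slide 2 were not among them. All d 16 whey was on slide 3, so its day and slide cannot be told apart.

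Some markers of immune cells moved over the same days, and so did markers of other cell types. The F test called 4 of 5 macrophage and 2 of 4 T and NK cell markers tested. It called 7 of 9 mammary epithelium markers, 3 higher and 4 lower on d 16, and the 1 erythroid and 1 platelet marker tested. Over all probes tested it called 25.6%, and limma called 28.5% from d 2 to d 16. Of the 10 macrophage markers 5 were tested, and Fcgr1a, Lyz2 and Cd68 rose from d 2 to d 16 while Cd14 fell. Fcgr1a was 3.36 higher on the log2 scale (limma adjusted p = 0.000596), while Cd14 fell by 1.88 (adjusted p = 0.00952). Lyz2 was at least 8.23-fold and Cd68 at least 3.99-fold higher. Their limma adjusted p of 0.000816 and 0.00113 belongs to the fitted log2 differences of 3.34 and 2.32 and does not test these bounds. Neither was well above background on d 2, so both passed the filter only through the later days. The summed normalized level of the macrophage list was 325 to 393 on d 2, 201 to 280 on d 9, 395 to 549 on d 16 and 2119 in serum. Cd14 and Fcgr1a were well above background on 9 of 9 whey arrays, Lyz2 and Cd68 on 6 and not on d 2, Adgre1 on 3, Mrc1 on 1, and Csf1r, Cd163, Marco and Itgam on no array. Of the 10 T and NK cell markers 4 were tested and the F test called Cd3d and Cd3g, both higher on d 16, and the summed level was 79.4 to 120 on d 2, 97.3 to 157 on d 9, 190 to 243 on d 16 and 2427 in serum. Cd3d, Cd3g and Nkg7 were well above background on 9 of 9 whey arrays, Lck on 3, Cd2 on 2, and Cd3e, Cd4, Cd8a, Gzmb and Klrd1 on no array. Of 4 neutrophil and 1 dendritic cell markers tested the F test called none, and no B cell marker was tested. The summed neutrophil level was 54.8 to 67.4 on d 2, 29.0 to 197 on d 9, 48.1 to 422 on d 16 and 10037 in serum. S100a8 was well above background on 7 of 9 whey arrays, Mpo and S100a9 on 4 each, and Ngp and Camp on 1 each. For Mpo these were 3 arrays of d 2, 1 of d 9 and 0 of d 16, and for S100a9 0, 2 and 2. Elane, Ltf, Csf3r, Cxcr2 and Mmp8 were well above background on no array. Cells had been taken out of the whey before RNA was extracted, and the part of RNA from these cell types in the Gbp2 values was not tested. In the RNA of such a fluid, fewer cells of a type as its source and less RNA per cell cannot be told apart.

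Irf1, Irf7 and Stat2 are the transcription factors of the group. Irf1 is induced by interferon-gamma through its GAS and in turn activates genes such as those of the Gbp family. Its probe (NM_012591) lies at chr10:39224461-39224695 of rn4 and gave 9.85, 9.97 and 23.4 on d 2, of which only dam 3 was well above background. On d 9 the signal was 16.9, 45.7 and 127, and on d 16 it was 14.0, 28.9 and 31.0, well above background on all 6 arrays. The normalized log2 level was 4.05 ± 0.41 on d 2, 4.70 ± 0.44 on d 9 and 4.18 ± 0.26 on d 16 (SD, n = 3 each). Every dam had its highest level on d 9, but the days overlapped and the difference between d 9 and d 2 of 0.65 on the log2 scale (SE 0.28) was not called (limma adjusted p = 0.152). It was called with normexp background (log2 difference 0.28, adjusted p = 0.0303) and with spike-in scaling (2.09, adjusted p = 0.0200).

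Irf7 is known as the factor that amplifies type I interferon production. Its probe (NM_001033691) at chr1:201456889-201456948 of rn4 gave 6.82, 29.3 and 57.9 on d 2, 46.7, 118 and 166 on d 9, and 45.5, 140 and 80.0 on d 16. It was well above background on 8 of 9 whey arrays, all but d 2 whey of dam 1. The normalized log2 level was 4.78 ± 1.00 on d 2, 5.72 ± 0.25 on d 9 and 5.90 ± 0.33 on d 16, so the d 2 arrays were the most spread. The d 16 values lay above all d 2 values, which held for 25.9% of all probes tested, and were higher in 3 of 3 dams. The difference of 1.12 (SE 0.46) was not called (limma adjusted p = 0.106). It was called without d 2 whey of dam 3 (log2 difference 1.51, limma adjusted p = 0.0446). Without d 2 whey of dam 1 it was 0.55 (adjusted p = 0.159), and the d 9 difference was 0.37 (0.366) in place of 0.94.

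Stat2 encodes the subunit of the ISRE-binding complex that carries its activation domain. Its probe (NM_001011905) at chr7:1579523-1579779 of rn4 gave 15.4, 11.3 and 19.9 on d 2, 5.60, 19.0 and 48.8 on d 9, and 5.07, 13.9 and 13.9 on d 16, well above background on 2 of 3 arrays each day. The normalized log2 level was 4.25 ± 0.58, 3.398 ± 0.613 and 2.98 ± 0.49. Stat2 was the one tested member with a lower mean on each later day, and the level was lower at each step in 3 of 3 dams. All d 16 values lay below all d 2 values, which held for 22.3% of all probes tested, and the difference of -1.27 (SE 0.41, limma adjusted p = 0.0539) was not called. It was called with 75th percentile scaling (adjusted p = 0.0420), with the slide as a random block (0.0341) and without d 9 whey of dam 1 (0.0408). With spike-in scaling the d 9 level of Stat2 was 0.48 higher than on d 2 instead of lower.

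The remaining members are effectors. Isg15 is a ubiquitin-like protein that is joined to other proteins after interferon exposure, and its probe lies at chr5:173034674-173034733 of rn4. It was the one gene of the group well above background on all 10 arrays. The signal was 33.7, 75.5 and 90.3 on d 2, 56.2, 155 and 623 on d 9, and 60.4, 441 and 196 on d 16. The normalized log2 level was 6.25 ± 0.17, 6.54 ± 0.68 and 7.01 ± 0.94, so the spread between dams grew while dam 1 stayed between 5.97 and 6.11. The differences from d 2 were 0.29 on d 9 (95% confidence interval -0.85 to 1.43, limma adjusted p = 0.710) and 0.76 on d 16 (-0.38 to 1.90, adjusted p = 0.286), and neither was called.

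Ifit3 belongs to the family of tetratricopeptide proteins that interferon induces against viral RNA. Its probe (NM_001007694) at chr1:238574983-238575042 of rn4 was well above background on 2 of 9 whey arrays, d 9 whey of dam 3 at a signal of 32.0 and d 16 whey of dam 2 at 28.5. The other 7 whey arrays lay between 1.85 and 6.999. Ifitm6 belongs to the interferon-induced transmembrane proteins. Its probe 2 (XM_219476) at chr1:201204920-201204979 of rn4 was well above background on 3 of 9 whey arrays, at 10.9 and 32.0 on d 9 for dams 2 and 3 and at 17.5 on d 16 for dam 2. The other 6 whey arrays lay between 1.76 and 8.55. Neither gene allows a fold between days, because the mean of the later days stayed under the lowest signal that counted as measured on d 2. The adjusted p from limma for d 9 against d 2 was 0.345 for Ifit3 and 0.0949 for Ifitm6 probe 2. The d 9 values of Ifitm6 probe 2 all lay above those of d 2, as did those of 24.1% of all probes tested. Ifit3 and Ifitm6 probe 2 both passed the filter through the later days alone.

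The 2 Ifitm6 probes gave unlike values. Probe 1 (CB322489), at chr1:201204789-201204848 of rn4, lies beside probe 2 but gave 1.76 to 2.13 on the whey arrays and 1.70 on the serum array, none well above background. Its coordinates are listed in rising order and those of probe 2 in falling order. Ifitm6 lies on the minus strand of build GRCr8. For the other members with a promoter entry, the order was falling for genes on the minus strand and rising for those on the plus strand. By that order probe 2 has the strand of Ifitm6 and probe 1 the opposite one. Whether probe 1 can read the Ifitm6 transcript was not tested. Mx1 and Mx2 encode dynamin-like GTPases that block viral replication. The signal of Mx1 (chr11:37439631-37439690) was 2.00 to 3.93 and that of Mx2 (chr11:37568920-37570815) 2.14 to 3.797 over the 9 whey arrays, and serum gave 2.08 and 2.03.

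The same arrays were high for several effectors. Within d 9, dam 3 had the highest normalized level of Gbp2, Isg15, Ifit3, Ifitm6 probe 2, Irf1 and Stat2, but the lowest of Irf7. Within d 16, dam 2 had the highest level of Gbp2, Isg15, Ifit3, Ifitm6 probe 2 and Irf7, and dam 3 that of Irf1 and Stat2. On d 16 dam 1 had the lowest level of Irf1, Irf7, Stat2, Gbp2, Isg15, Ifit3 and Ifitm6 probe 2. The 75th percentile of the processed signal was 83.2 for d 9 whey of dam 3 and 40.6 for d 16 whey of dam 2, the brightest array of each of these days, and 21.5 for d 16 whey of dam 1, the dimmest of its day. The part of array brightness was not tested. Among 7258 gene probes measured well above background in every whey sample, those whose level over the 9 arrays was most like that of Isg15 were Gadd45b (r = 0.910), L3mbtl3 (r = 0.901) and Rps29 (r = 0.895), arrays that share dams and slides. The SD of the log2 level over the 9 arrays was 0.84 for Gadd45b, 0.19 for L3mbtl3 and 0.13 for Rps29, beside 0.67 for Isg15.

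**Figure D2:**
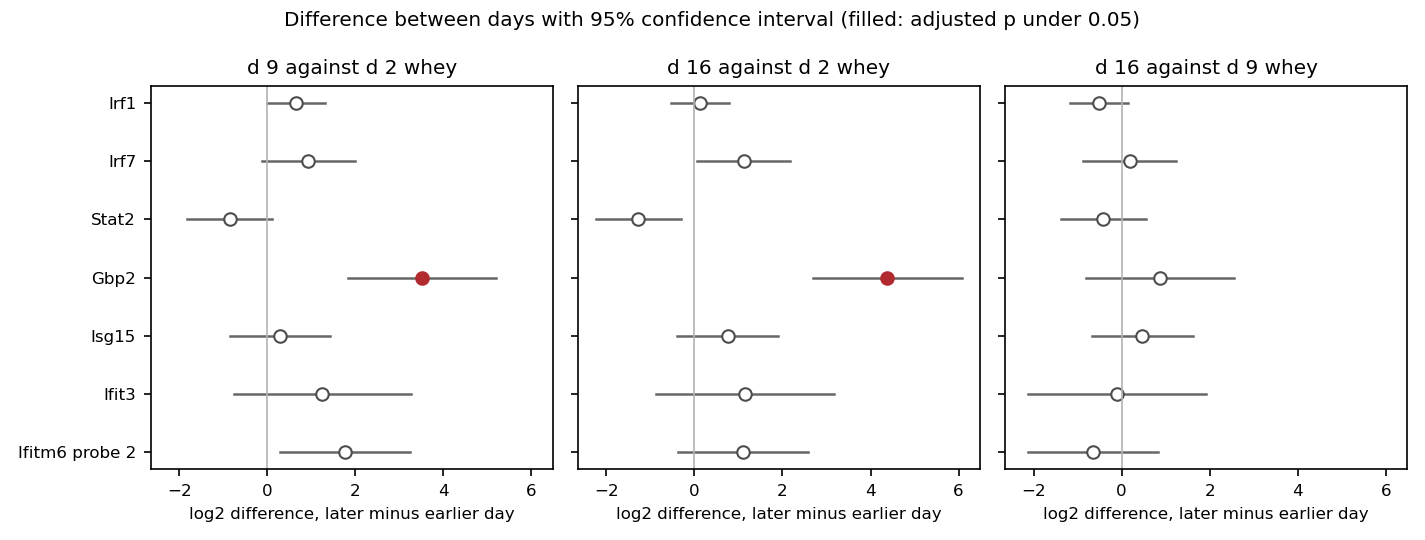
Fitted log2 difference between days (x axis, later minus earlier) for the 6 tested member probes and Isg15 (y axis), with 95% confidence intervals from limma. Filled points have an adjusted p under 0.05. Gbp2 is filled against d 2 on both later days, where its d 2 signals were not above background, and no point is filled between d 9 and d 16.

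The rest of the pathway was followed through 112 other genes in 7 lists. Of these 93 had a probe, Ifna1 and Ifna5 the same one, 59 were tested and the F test over the 3 days called 10, beside 25.6% of all probes tested. Of the 10 called, 8 were higher on d 16 than on d 2 and 2 were lower. The 8 include Irf5, Samd9l and Cish, which no d 2 array measured above background. The pathway split was 8 and 1 of 9 called with 75th percentile scaling and 12 and 3 of 15 called with normexp background, and with spike-in scaling all 8 called were higher. These splits are of genes called by the F test. In the direct comparison of d 16 with d 2, limma called 11 of the 59 genes higher and 2 lower. Over all probes tested, limma called 2701 higher and 2107 lower in that comparison. With 75th percentile scaling it called 2426 and 1919, with normexp background 2693 and 2248, and with spike-in scaling 607 and 174. The median log2 difference from d 2 to d 16 was 0.30 over the 59 genes and 0.04 over all probes tested. From d 9 to d 16 limma called 0 of 59, with 13 at an unadjusted p under 0.05 and 0 by the Tukey-Kramer test.

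None of the 5 interferon ligand probes, those of Ifnb1 and Ifng among them, was well above background on any array. Of the receptors, the interferon-gamma receptor chains Ifngr1 and Ifngr2 passed background well on each of the 9 whey arrays and the probe of Ifnar1 on none. Ifngr1 differed by 0.36 and Ifngr2 by 0.61 on the log2 scale from d 2 to d 16 (limma adjusted p = 0.287 and 0.0533). Among 9 kinases, STATs and IRFs tested the F test called Irf5, a factor known from macrophages. Irf5 was well above background on all 6 later arrays and rose at least 2.15-fold between d 2 and d 16. The limma adjusted p of 0.00168 belongs to the fitted log2 difference of 2.51. No d 2 array measured Irf5 above background, which holds for Samd9l and Cish below as well. These probes passed the filter only through the later days, and their p-values do not test the bounds given for them. The normalized log2 level of Irf5 was 2.06 ± 0.35 on d 2, 3.82 ± 0.59 on d 9 and 4.57 ± 0.24 on d 16. The signalling genes Jak2 and Irf9 rose by 0.73 and 0.43 on the log2 scale from d 2 to d 16 (adjusted p = 0.0404 and 0.0397), though neither passed the F test (0.0800 and 0.0782). Jak1 differed by 0.12 (adjusted p = 0.665). Of 9 nucleic acid sensing genes tested the F test called none.

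Of 20 antiviral effectors tested the F test called 4. The transmembrane proteins Ifitm2 and Ifitm3, which block virus entry, fell. Ifitm2 went from a log2 level of 10.91 ± 0.08 on d 2 to 9.41 ± 0.20 on d 9 and 8.55 ± 0.24 on d 16 (limma F test adjusted p = 0.000572), and Ifitm3 from 7.44 ± 0.13 to 6.24 ± 0.49 and 6.31 ± 0.49 (adjusted p = 0.0355). With spike-in scaling Ifitm2 fell by 0.04 to d 9 and by 1.84 to d 16 on the log2 scale (F test adjusted p = 0.0601), and Ifitm3 was 0.27 higher on d 9 and 0.52 lower on d 16 (0.546). Whether the probes of this family hybridise to its other members was not tested. The exonuclease gene Isg20 rose from 9.47 ± 0.41 to 10.94 ± 0.34 and 10.76 ± 0.11 (adjusted p = 0.00862). Samd9l rose at least 1.64-fold between d 2 and d 16 (adjusted p = 0.00170). Oas1a, a sensor of double-stranded RNA, differed by 0.76 on the log2 scale from d 2 to d 16 (adjusted p = 0.244).

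Of 12 interferon-gamma targets tested the F test called 3. Ifi47, an immunity-related GTPase, rose from a log2 level of 3.55 ± 1.04 on d 2 to 5.80 ± 0.54 on d 9 and 5.76 ± 0.08 on d 16 (limma adjusted p = 0.0196). B2m, the light chain of MHC class I, rose from 13.14 ± 0.12 to 13.64 ± 0.17 and 14.39 ± 0.21 (adjusted p = 0.00371). The immunoproteasome subunit Psmb8 was highest on d 9, at 10.40 ± 0.18 against 9.86 ± 0.09 on d 2 and 9.995 ± 0.054 on d 16 (adjusted p = 0.0343). It was not called with 75th percentile scaling (F test adjusted p = 0.0752) or with spike-in scaling (0.0756). The chemokine gene Cxcl10 was well above background on 2 of 9 whey arrays and was not called (adjusted p = 0.565). Of 7 inhibitors of the pathway tested the phosphatase gene Ptpn2 and the SOCS family gene Cish were called. Ptpn2 rose from 6.31 ± 0.16 to 7.24 ± 0.20 and 7.04 ± 0.18 (adjusted p = 0.0108), and Cish was at least 2.28-fold higher on d 9 and 2.14-fold higher on d 16 than on d 2 (F test adjusted p = 0.0103). Socs1 was well above background on no array.

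**Figure D3:**
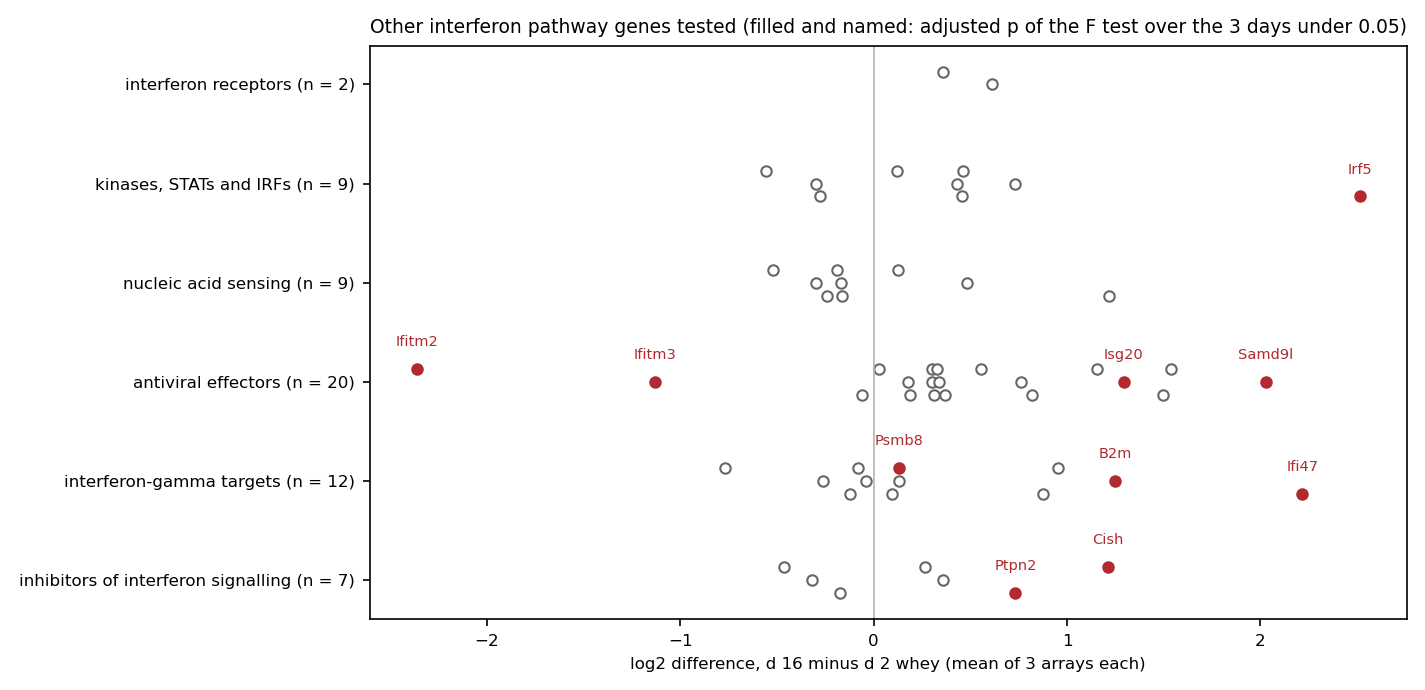
Log2 difference between d 16 and d 2 whey (x axis, means of 3 arrays each) for the 59 tested genes of the other pathway lists (y axis). Filled and named points are the 10 genes with an adjusted p under 0.05 in the F test over the 3 days. Irf5 lies farthest to the right and Ifitm2 farthest to the left, and Psmb8, whose highest mean was on d 9, lies near 0.

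In serum Irf7, Gbp2, Ifitm6 probe 2 and Isg15 were well above background and the other members were not. The serum array was dim, and quantile normalization raised its brighter signals. The processed signal of Irf7 was 115 in serum, inside the whey range of 6.82 to 166, while its normalized log2 level was 10.17 in serum against 5.47 ± 0.75 (SD, n = 9) in whey. Gbp2 had a processed signal of 28.1 in serum and a normalized level of 8.21 against 3.78 ± 2.19 in whey, where 6 of 9 arrays measured it. Ifitm6 probe 2 had 11.03 and a level of 6.58 against 2.21 ± 1.09, and Isg15 57.1 and a level of 9.24 against 6.60 ± 0.67. On the normalized scale the serum value of each of these 4 lay above all 9 whey values.

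Of the 6 member probes measured in whey or serum, 4 were more than 4-fold higher in serum, beside 15.8% of 21154 probes, and 1 more than 4-fold higher in whey, beside 27.2%. The 4 were Irf7, Gbp2, Ifitm6 probe 2 and Ifit3, and the last was not well above background in serum. The 1 was Irf1, which was well above background on 7 of 9 whey arrays at a level of 4.31 ± 0.44, but not in serum. No fold is given for Irf1, since that mean lay under 5.85, the lowest normalized level that counted as measured on the serum array. These counts depended on the scaling and the background step. With 75th percentile scaling 4 probes were more than 4-fold higher in serum and 0 in whey, with normexp background 1 and 0, and with spike-in scaling 0 and 2, the latter being Irf1 and Stat2, which were not well above background in serum and so have no fold. Of all 21154 probes, 4238 were that much higher in serum and 3603 in whey with 75th percentile scaling. With normexp background it was 877 and 514, and with spike-in scaling 728 and 12773. With spike-in scaling Irf7 was still 1.07 and Gbp2 0.64 lower in whey on the log2 scale, while Isg15 turned to 1.08 higher in whey. The sign of the difference was the same under all 4 settings for Irf1, Irf7, Gbp2 and Ifitm6 probe 2, and changed for Stat2, Isg15 and Ifit3.

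**Figure D4:**
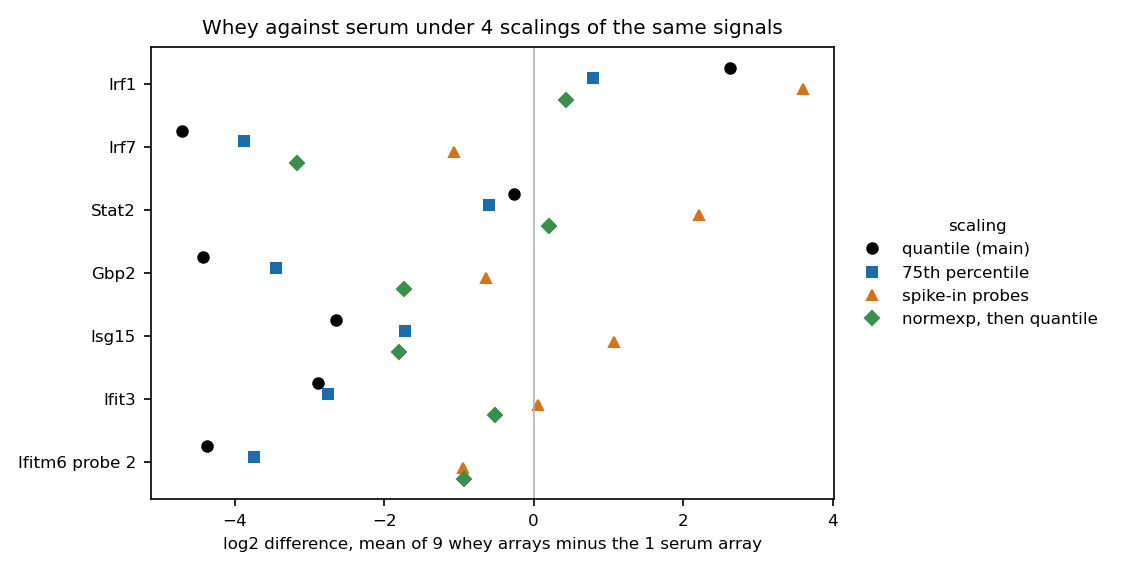
Log2 difference between the mean of the 9 whey arrays and the 1 serum array (x axis) for the 6 member probes measured and Isg15 (y axis), under 4 scalings of the same signals. Irf7 and Gbp2 lie below 0 under all 4, between -4.71 and -0.64, while Isg15 and Stat2 lie on both sides of 0.

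Blood cell markers were high in the serum pool. The summed normalized level of the erythroid list was 364557 in serum against 65.5 to 299 in whey. That of the platelet list was 89494 against 18.0 to 59.7. In whey, Hba-a3 was well above background on 9 of 9 arrays, Pf4 on 8, and Slc4a1 and Gp9 on 1 each. Hbb, Alas2, Epb42, Ppbp and Gp1bb were well above background on no whey array. From d 2 to d 16 whey the log2 difference was 2.12 for Hba-a3 and -1.73 for Pf4 (limma adjusted p = 0.00134 and 0.0134). Serum had been centrifuged and filtered as well, and the part of RNA from these cells in the serum levels of the interferon response genes was not tested.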

How the data were processed

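RNA was measured in 9 whey arrays (3 dams on d 2, d 9 and d 16) and 1 serum array. Each array received 100 ng of RNA. The deposited values are linear spot intensities, which the authors made with Feature Extraction 9.5.3.1 by background subtraction, without normalization between arrays, and the deposited flags are other values from that software. A deposited table of normalized values was not used, because its 10 sample columns match no sample label.

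Here the processed signal was taken to log2 and quantile normalized over the 10 arrays, as in the study's methods, with spots flagged as outliers left out and spots of a probe averaged. Probes well above background with a signal above 20 on at least 1 whey array were tested with limma 3.58.1 in R 4.3.3 (two-sided, Benjamini-Hochberg, threshold 0.05), all days sharing 1 estimate of the spread. The number of arrays limits the precision. Probe positions are those of the array design (rn4) and were not annotated for exons. Names and promoters came from RefSeq (GRCr8). The scripts were tested on simulated data.

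Same-numbered samples come from the same dam, per the titles. Deviations from the day means correlated at -0.0185 to 0.218 within dams, and the dam as a block was an alternative. Other alternatives were the scaling, background, filter, slide, test and each array left out. Normexp background started from the mean spot signal and its background in place of the processed signal, with an offset of 50. The members and gene lists were chosen with earlier results of these data known. The text names all members, a fixed set of pathway genes and, per list, at most 3 genes in each direction with the largest change from d 2 to d 16 among those the F test called. Of the fixed set 1 gene is not reported here. Others named were chosen after their values were seen.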

Additional observations from a re-analysis of the deposited data

How the results depend on the processing

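The count of member probes called from d 2 to d 9, 1 as reported, was 5 with spike-in scaling, 2 in a fit of these 2 days alone, and 0 by the Tukey-Kramer test, with the slide as a fixed block and within slide 2. The share of all probes called was 41.2%, 9.48%, 7.64%, 2.96% and 0.635% in that order, against 17.7%. From d 2 to d 16, also 1 as reported, it was 2 with 75th percentile scaling (25.8% of all probes) and 2 with the slide as a random block (33.8%). The F test called 4 with spike-in scaling (16.7% of all) and 2 with normexp background (30.6%), against 1 (25.6%). The other pathway genes called by the F test were 16 with the slide as a random block (33% of all probes), against 10. Member probes more than 4-fold from serum were 2 with spike-in scaling and 1 with normexp background, against 5, and none was measured on all 10 arrays, so that filter gave no value. Spike-in scaling raised the median of all probes tested by 1.52 on d 9 and by 0.60 on d 16 over d 2 on the log2 scale. With it, 6867 probes were called higher and 68 lower from d 2 to d 9, against 1887 and 1088, and the d 9 differences of Irf7 (2.39), Irf1 (2.09) and Isg15 (1.81) were called. Ifit3 and Ifitm6 probe 2 were counted as well, but no d 2 array measured either above background and no fold is given.

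With each array left out in turn and the tested probes kept, the counts were 0 to 2 for d 9 against d 2, 1 to 2 for d 16 against d 2, 0 to 0 for d 16 against d 9, 1 to 2 by the F test, 7 to 10 for the pathway and 5 to 5 against serum. The count from d 2 to d 9 was 0 without d 2 (9.21% of all probes called) or d 9 whey of dam 2 (7.45%) and 2 without d 16 whey of dam 1 (15.3%). That from d 2 to d 16 was 2 without d 2 whey of dam 3 (23.7% of all), d 9 whey of dam 1 (28%) or d 16 whey of dam 1 (21.5%), and that of the F test 2 without the last (19.2%). The pathway count was 7 without d 2 whey of dam 2 (14.2% of all). Among the members, directions that turned were those of differences that were not called. From d 9 to d 16 Ifit3 was 0.19 with 75th percentile scaling and 0.022 with normexp background on the log2 scale, and Irf7 -0.67 and Isg15 -0.40 with spike-in scaling. Stat2 from d 2 to d 9 was 0.48 with spike-in scaling. The pathway gene Ifitm3, called lower from d 2 to d 9 (-1.20, limma adjusted p = 0.0340), was 0.27 in that comparison with spike-in scaling. With arrays left out, Irf1 ranged from -0.10 to 0.27 for d 16 against d 2, Isg15 from -0.090 to 0.57 for d 9 against d 2, and for d 16 against d 9 Ifit3 ranged from -0.93 to 0.70, Ifitm6 probe 2 from -1.22 to 0.10 and Irf7 from -0.0075 to 0.31. The cause was not tested. The dam as a replicate block gave 1, 1 and 0 member probes called in the 3 comparisons of days and 15 pathway genes by the F test, and it changed no other call of a member. Over all probes it called 18.3%, 28.9% and 0.653% in these comparisons and 25.6% by the F test. Dim probes on d 2 limit what these arrays can show for Gbp2, Ifit3, Ifitm6, Mx1 and Mx2.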
